A study of Bos taurus with 6 samples.

Results

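The expression of 10 genes for the type IV collagen chains, laminin chains, perlecan and nidogen of the basement membrane was described in the longissimus dorsi muscle of cattle. The genes were COL4A1, COL4A2, LAMA2, LAMA4, LAMA5, LAMB1, LAMB2, LAMC1, HSPG2 and NID1, chosen by name with earlier results of these data known. All 10 were found among the 18010 genes listed. The muscle came from 3 Shandong black cattle (B) and from 3 Luxi cattle (L) at 18 months of age, and each animal gave one RNA-Seq library. Shandong black cattle combine Japanese black, Luxi and Bohai black cattle, and Luxi cattle are a local yellow beef breed. The breeds were obtained from different companies, so breed and origin cannot be told apart, while the Methods describe one feeding regime for both. Animals are numbered 1 to 3 within a breed, and the labels do not describe same-numbered animals as pairs.

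The basement membrane is a thin sheet of matrix that surrounds every muscle fibre and underlies the endothelium of the capillaries between the fibres. Laminins, each a trimer of one alpha, one beta and one gamma chain, assemble into a network on the cell surface that is held by integrins and dystroglycan. Type IV collagen forms a second, covalently linked network, and nidogen and perlecan, a large heparan sulfate proteoglycan, join both networks. In skeletal muscle LAMA2 supplies the alpha chain of the fibre's own laminin, and its loss causes muscular dystrophy, whereas LAMA4 and LAMA5 are the alpha chains of vessel laminins. LAMB2 is the beta chain known for its concentration at the neuromuscular junction.

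Gene expression was given as FPKM (fragments per kilobase, here scaled to the aligned bases of a library), summed over the transcripts of a gene. Each library held 14.1 to 14.6 gigabases of aligned sequence in Shandong black cattle and 17.5 to 17.99 gigabases in Luxi cattle. The labelled tissue was checked against 8 muscle fibre genes, whose summed FPKM ran from 45503 to 56026 in Shandong black cattle and from 23071 to 71950 in Luxi cattle. Luxi cattle 1 had the lowest of these sums. The breeds were compared with limma on log2(FPKM + 1) for the 9781 genes whose mean FPKM reached 1 in either breed, the 10 basement membrane genes among them. Fold changes are Luxi over Shandong black cattle, and the added 1 makes them too small where FPKM is low. To be called, a gene needed a Benjamini-Hochberg adjusted p below 0.05 together with a log2 fold change of 1 or more in either direction.

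None of the 10 genes was called between the breeds, although the mean log2(FPKM + 1) of each was higher in Luxi cattle, by as little as 0.01 in LAMB1. The criteria called 0 of the 10, against 2.57% of all genes tested, and 6 of the 10 had an unadjusted limma p under 0.05, against 21.8%. In 6 genes (COL4A1, COL4A2, LAMA4, LAMB2, HSPG2 and NID1) every Luxi animal lay above every Shandong black animal, a pattern found in 20.0% of all genes tested. In 0 of the 10 every Luxi animal lay below, against 9.13% of all genes tested. The 6 became 4 with TPM and 5 with quantile normalization. A log2 fold change of at least 1 was reached by COL4A1, COL4A2 and LAMB2, 3 of the 10, against 5.15% of all genes. The fold change was above 0 in 10 of 10, against 62.5%, with a median of 0.62 against 0.13 for all genes tested. With 3 animals per breed, the exact two-sided permutation test of one gene cannot give a p under 0.1, and animals that do not overlap give exactly that value. The study used another test, Cuffdiff, and lists COL4A2, LAMA5, LAMB2 and HSPG2 among its upregulated genes, with ratios taken as Luxi over Shandong black cattle. The lack of calls here therefore belongs to the limma test used.

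The median over all genes tested was itself above 0. Size factors taken as medians of ratios lowered the median fold change over all genes tested from 0.13 to 0.03 on the log2 scale. They also changed the split of called genes from 151 higher and 100 lower in Luxi cattle to 113 higher and 139 lower. After this scaling the median of the 10 genes was 0.51, and 8 of 10 had a fold change above 0.

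**Figure D1:**
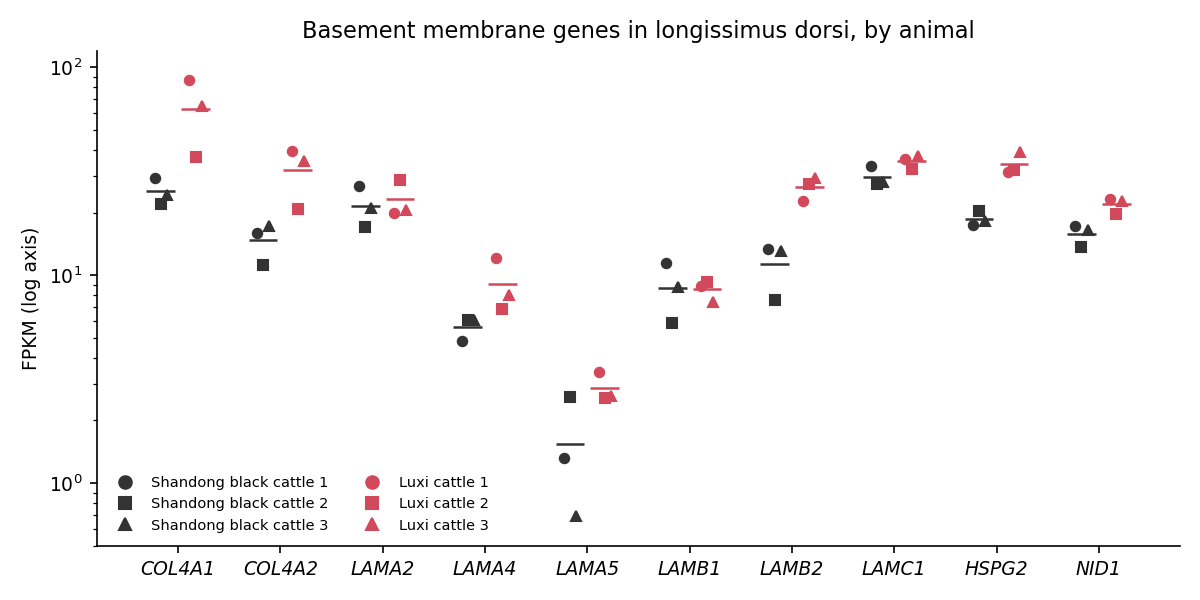
FPKM of each gene (log axis) in the 3 Shandong black cattle (dark) and the 3 Luxi cattle (red), with the symbol giving the animal and the bar the mean of a breed. The breeds lie apart for COL4A1, COL4A2, LAMA4, LAMB2, HSPG2 and NID1 and overlap for LAMA2, LAMA5, LAMB1 and LAMC1.

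COL4A1 and COL4A2 encode the alpha 1 and alpha 2 chains of type IV collagen, which form a single trimer in the vessels and fibres of most tissues. In the ARS-UCD1.2 coordinates of the files both lie on chromosome 12, COL4A1 at 84863917 to 84995777 on the minus strand and COL4A2 at 84996073 to 85154028 on the plus strand. The genes stand head to head, with starts 296 bases apart.

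COL4A1 had an FPKM of 29.3, 22.1 and 24.4 in Shandong black cattle 1 to 3 and of 86.5, 36.8 and 65.0 in Luxi cattle 1 to 3. The breeds did not overlap, but Luxi cattle 2 was close to the Shandong black animals and Luxi cattle 1 far above them. Its log2 fold change was 1.21 ± 0.34 (SE), with a limma adjusted p of 0.105. COL4A2 had an FPKM of 15.9, 11.1 and 17.2 in Shandong black cattle and of 39.6, 20.8 and 35.3 in Luxi cattle. Again no animal of one breed overlapped with the other, and again Luxi cattle 2 was the lowest of its breed. On the log2 scale the fold change was 1.04 ± 0.30 (SE), with a limma adjusted p of 0.112. Without Luxi cattle 1 the log2 fold changes were 0.94 and 0.86, and without Luxi cattle 2 they were 1.54 and 1.31.

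The ratio of COL4A2 to COL4A1 was 0.542, 0.504 and 0.706 in Shandong black cattle and 0.458, 0.567 and 0.543 in Luxi cattle. The ratios overlapped between the breeds, and their difference of -0.15 on the log2 scale had an exact two-sided permutation p of 0.6.

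Among the laminin alpha chains, the breeds lay apart in LAMA4 and overlapped in LAMA2 and LAMA5. LAMA2 (chromosome 9, 66989322 to 67689094, plus strand) had an FPKM of 26.8, 17.0 and 21.0 in Shandong black cattle and of 20.0, 28.8 and 20.6 in Luxi cattle. The ranges were nearly the same, with the lowest value in a Shandong black animal and the highest in a Luxi animal. The log2 fold change was 0.10, with a 95% interval from -0.50 to 0.70 and a limma adjusted p of 0.853, and its sign turned under scaling by size factors, where it was -0.04.

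LAMA4 (chromosome 9, 38176082 to 38331079, plus strand), the alpha chain that endothelium makes throughout life, had an FPKM of 4.80, 6.09 and 6.09 in Shandong black cattle and of 12.2, 6.89 and 8.07 in Luxi cattle. No overlap was seen, though Luxi cattle 2 exceeded the Shandong black animals by little. Its log2 fold change was 0.56 ± 0.24 (SE), with a limma adjusted p of 0.222, and it was 0.35 without Luxi cattle 1.

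LAMA5 (chromosome 13, 54887634 to 54939286, plus strand), the alpha chain of mature vessels, had the lowest level of the 10 genes in both breeds. Its FPKM was 1.33, 2.60 and 0.693 in Shandong black cattle and 3.41, 2.57 and 2.63 in Luxi cattle, so that Shandong black cattle 2 lay just above Luxi cattle 2. On the log2 scale the fold change was 0.67 ± 0.28 (SE), with a limma adjusted p of 0.224. It was 0.41 without Shandong black cattle 3 and 0.96 without Shandong black cattle 2.

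These LAMA5 values depended on how the transcripts were put together. In Shandong black cattle 2 no reference transcript of LAMA5 was listed, and the gene was instead represented by 3 assembled pieces of 3715, 4640 and 2790 bases that lie one after the other. Their FPKM of 0.963, 1.17 and 0.468 add up to the gene's value as if each were a full transcript. Shandong black cattle 1 likewise had 2 pieces, of 1155 and 10309 bases. When each transcript was weighted by its length relative to the longest reference transcript, an alternative chosen after the data were seen, the LAMA5 level was 0.457, 0.888 and 0.689 in Shandong black cattle and 3.30, 2.55 and 2.61 in Luxi cattle. The breeds then lay apart, and the log2 fold change was 1.19 ± 0.17 (SE), with a limma adjusted p of 0.0221. LAMA5 was the single gene of the 10 called with this weighting, which called 2.78% of all genes tested. The weighting put 7 of the 10 genes in the pattern of no overlap with Luxi cattle higher, against 20.3% of all genes.

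Of the beta chains, LAMB1 overlapped between the breeds and LAMB2 did not. LAMB1 (chromosome 4, 48985684 to 49062382, minus strand), the widespread beta chain, had an FPKM of 11.5, 5.87 and 8.80 in Shandong black cattle and of 8.90, 9.32 and 7.46 in Luxi cattle. All 3 Luxi animals lay within the range of the Shandong black animals. The log2 fold change was 0.01, with a 95% interval from -0.57 to 0.60 and a limma adjusted p of 0.980, and it was -0.11 with size factors.

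LAMB2 (chromosome 22, 50883580 to 50897890, plus strand) had an FPKM of 13.4, 7.56 and 13.0 in Shandong black cattle and of 22.7, 27.6 and 29.4 in Luxi cattle. The breeds were well apart, with the lowest Luxi animal above the highest Shandong black animal by more than the standard deviation of either breed. In Shandong black cattle the mean FPKM was 11.3 ± 3.27 (SD, n = 3), in Luxi cattle it was 26.6 ± 3.46 (SD, n = 3), and their log2 fold change was 1.19 ± 0.26 (SE). Its limma adjusted p of 0.0615 was the lowest of the 10 genes and missed the threshold. Without Luxi cattle 1 the log2 fold change was 1.3 with a limma adjusted p of 0.0419, and the gene was called. That setting called 593 of all 9707 genes tested.

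The ratio of LAMB2 to LAMB1 was 1.17, 1.29 and 1.48 in Shandong black cattle and 2.55, 2.96 and 3.95 in Luxi cattle. The breeds lay apart, and the ratio was 2.37 times as high in Luxi cattle (1.25 on the log2 scale). Its exact two-sided permutation p was 0.1, the smallest that the design allows, and 0.267 after adjustment over the 8 ratios that were computed. This ratio is not changed by the scaling of a library. LAMB2 made up 53.9 to 59.7% of the summed FPKM of both beta chains in Shandong black cattle and 71.9 to 79.8% in Luxi cattle.

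LAMC1 (chromosome 16, 64062643 to 64183739, plus strand), the gamma chain shared by the laminins of muscle fibres and vessels, had an FPKM of 33.6, 27.4 and 27.9 in Shandong black cattle and of 36.3, 32.4 and 37.5 in Luxi cattle. Shandong black cattle 1 exceeded Luxi cattle 2, so the breeds overlapped. Its log2 fold change was 0.25, with a 95% interval from -0.24 to 0.74 and a limma adjusted p of 0.510.

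Summed by chain, the alpha chains had an FPKM of 32.9, 25.7 and 27.8 in Shandong black cattle and of 35.5, 38.3 and 31.3 in Luxi cattle. The beta chains had 24.9, 13.4 and 21.8 in Shandong black cattle and 31.6, 36.9 and 36.9 in Luxi cattle. The alpha sums overlapped between the breeds and the beta sums did not. In Luxi cattle the mean sums of alpha chains (35.0 ± 3.52, SD, n = 3), beta chains (35.1 ± 3.03) and LAMC1 (35.4 ± 2.68) were near equal, whereas in Shandong black cattle the beta chains stood lower (20.0 ± 5.93) than the alpha chains (28.8 ± 3.72) and LAMC1 (29.6 ± 3.42).

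HSPG2 encodes perlecan, the proteoglycan that binds growth factors in the basement membrane. The gene (chromosome 2, 130867508 to 130977474, plus strand) had an FPKM of 17.3, 20.3 and 18.2 in Shandong black cattle and of 31.4, 32.2 and 39.1 in Luxi cattle. The breeds lay far apart compared with the spread within them. On the log2 scale the fold change was 0.84 ± 0.20 (SE), with a limma adjusted p of 0.0791.

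As for LAMA5, the order of the Shandong black animals in HSPG2 changed with the transcripts counted. In Shandong black cattle 2, a piece of 4579 bases carried an FPKM of 11.7 and reference transcripts 8.36% of the gene's FPKM. In the other animals the reference share was 27.9 to 69.4%. With the length-weighted sum the level was 15.7, 10.9 and 17.1 in Shandong black cattle and 30.1, 31.0 and 37.5 in Luxi cattle, so that Shandong black cattle 2 moved from the highest to the lowest of its breed. The log2 fold change was then 1.14 ± 0.24 (SE), with a limma adjusted p of 0.0512. With reference transcripts only it was 2.02.

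NID1 (chromosome 28, 8687268 to 8784219, minus strand) encodes nidogen 1, which binds the laminin gamma chain and type IV collagen. Its FPKM was 17.3, 13.6 and 16.5 in Shandong black cattle and 23.1, 19.7 and 22.7 in Luxi cattle. Every Luxi animal was higher, by a small gap. Its log2 fold change was 0.45 ± 0.20 (SE), with a limma adjusted p of 0.242. All of the FPKM of NID1 and COL4A2 lay on reference transcripts in every animal, so their values did not depend on assembled pieces.

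**Figure D2:**
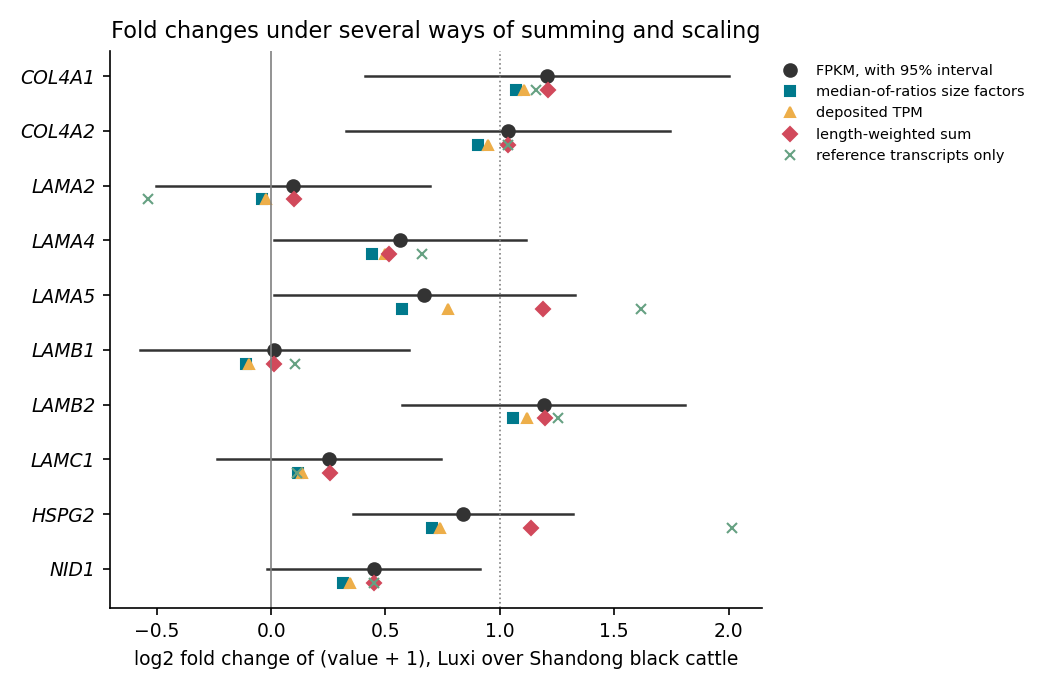
Log2 fold change of (value + 1), Luxi over Shandong black cattle, for each gene from FPKM with its 95% interval (circle and line) and under 4 other ways of summing or scaling. The dotted line marks a log2 fold change of 1. LAMA5 and HSPG2 moved most with the choice of transcripts, and LAMA2 and LAMB1 lay on both sides of 0.

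The order of the levels also differed between the breeds. In Shandong black cattle LAMC1 (29.6 FPKM) came first, followed by COL4A1 (25.3), LAMA2 (21.6), HSPG2 (18.6), NID1 (15.8), COL4A2 (14.7), LAMB2 (11.3), LAMB1 (8.71), LAMA4 (5.66) and LAMA5 (1.54). Of the neighbours in this order, HSPG2 and NID1 as well as LAMA4 and LAMA5 had ranges that did not overlap. The gap between HSPG2 and NID1 depended on the assembled pieces. With the length-weighted sum their ranges overlapped in Shandong black cattle, and the mean of HSPG2 (14.6) was below that of NID1 (15.7). In Luxi cattle COL4A1 (62.8 FPKM) came first, followed by LAMC1 (35.4), HSPG2 (34.2), COL4A2 (31.9), LAMB2 (26.6), LAMA2 (23.1), NID1 (21.9), LAMA4 (9.04), LAMB1 (8.56) and LAMA5 (2.87). There, NID1 and LAMA4 as well as LAMB1 and LAMA5 were the neighbours with separate ranges. LAMB1 and LAMA4 changed places by their means, though their ranges in Luxi cattle overlapped, and LAMA2 ranked below COL4A2 and LAMB2. With the length-weighted sum LAMA4 (8.54) stayed below LAMB1 (8.56) in Luxi cattle, so that change of places was lost. The 10 genes together had a summed FPKM of 171, 134 and 154 in Shandong black cattle and of 284, 217 and 268 in Luxi cattle.

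Of the 8 ratios between chains, 3 had breeds that lay apart, namely LAMB2 to LAMB1, NID1 to LAMC1 and LAMC1 to COL4A1. None could pass adjustment, since the smallest permutation p is 0.1. The ratio of LAMC1 to COL4A1, laminin against collagen, was 1.15, 1.24 and 1.14 in Shandong black cattle and 0.420, 0.880 and 0.577 in Luxi cattle. LAMC1 thus exceeded COL4A1 in every Shandong black animal and was below it in every Luxi animal, with a difference of -0.98 on the log2 scale (exact permutation p = 0.1, adjusted 0.267). The ratio of NID1 to LAMC1 was 0.514, 0.496 and 0.592 in Shandong black cattle and 0.638, 0.609 and 0.605 in Luxi cattle, a difference of 0.21. The ratios of LAMA4 and of LAMA5 to LAMA2 overlapped between the breeds, with differences of 0.54 and 0.99 and exact permutation p-values of 0.4 and 0.3. With one animal left out the differences ran from 0.21 (without Luxi cattle 1) to 0.88 (without Luxi cattle 2) for LAMA4 and from 0.52 (without Shandong black cattle 3) to 1.63 (without Shandong black cattle 2) for LAMA5, and the breeds lay apart at the upper end of each. The LAMA4 to LAMA2 ratio also lay apart with reference transcripts only (1.36), and the LAMA5 to LAMA2 ratio with the length-weighted sum (2.0). The ratios of LAMC1 to LAMB1 and of HSPG2 to COL4A1 overlapped as well, with differences of 0.24 and -0.36. With one animal left out these ran from 0.10 to 0.45 and from -0.67 to -0.03, the breeds lying apart in LAMC1 to LAMB1 without Shandong black cattle 2. With reference transcripts only they turned to -0.01 and 1.11.

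**Figure D3:**
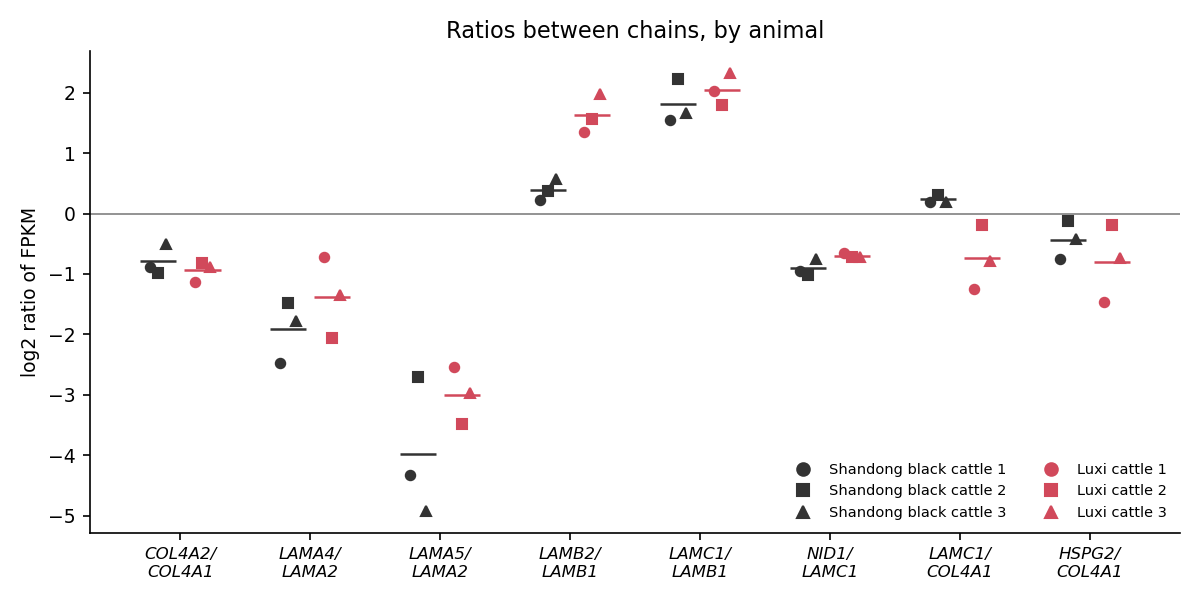
Log2 ratio of FPKM between 2 chains in each animal, with the symbol giving the animal and the bar the mean of a breed. The breeds lie apart for LAMB2/LAMB1, NID1/LAMC1 and LAMC1/COL4A1, and the widest spread among Shandong black cattle is that of LAMA5/LAMA2.

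These genes have long transcripts, from 5583 to 14888 bases and 20 to 102 exons in the longest reference form, so the depth was also followed along them. Each transcript was divided into 3 sections of equal length. Depth is the mean number of reads over a base per aligned gigabase of the library, summed over all transcripts of the gene. For COL4A1 the 5′ section had a depth of 13.5, 12.1 and 13.4 in Shandong black cattle and of 27.2, 20.4 and 30.4 in Luxi cattle. The 3′ section had 48.2, 35.4 and 37.1 in Shandong black cattle and 124, 45.4 and 90.4 in Luxi cattle. The breeds lay apart in the 5′ section and overlapped in the 3′ section, where Luxi cattle 2 was below Shandong black cattle 1.

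COL4A2, LAMB2, HSPG2 and LAMA5 lay apart in each of the 3 sections. For LAMA5 the depth over the whole transcript was 0.451, 0.888 and 0.690 in Shandong black cattle and 3.33, 2.55 and 2.61 in Luxi cattle. The means differed by 2.07 on the log2 scale, with 1.90 in the 5′ section and 2.24 in the 3′ section. For HSPG2 the difference was 0.82 in the 5′ section and 1.48 in the 3′ section, and in all animals the 3′ section had a lower depth than the 5′ section. LAMA2 had differences of 0.29 in the 5′ section and -0.17 in the 3′ section, with overlap in both.

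The balance along the transcript overlapped between the breeds. The median log2 ratio of 3′ to 5′ section, taken on the longest of a gene's reference transcripts that were listed in all animals, which left 9 genes without LAMA5, was 0.07, -0.47 and -0.06 in Shandong black cattle and 0.69, -0.37 and 0.14 in Luxi cattle. The difference of 0.31 had an exact two-sided permutation p of 0.4. The same median over 4098 genes with transcripts of at least 3000 bases was -0.35, -0.53 and -0.43 in Shandong black cattle and -0.17, -0.47 and -0.34 in Luxi cattle. Luxi cattle 1 had the highest and Shandong black cattle 2 the lowest balance in both sets.

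**Figure D4:**
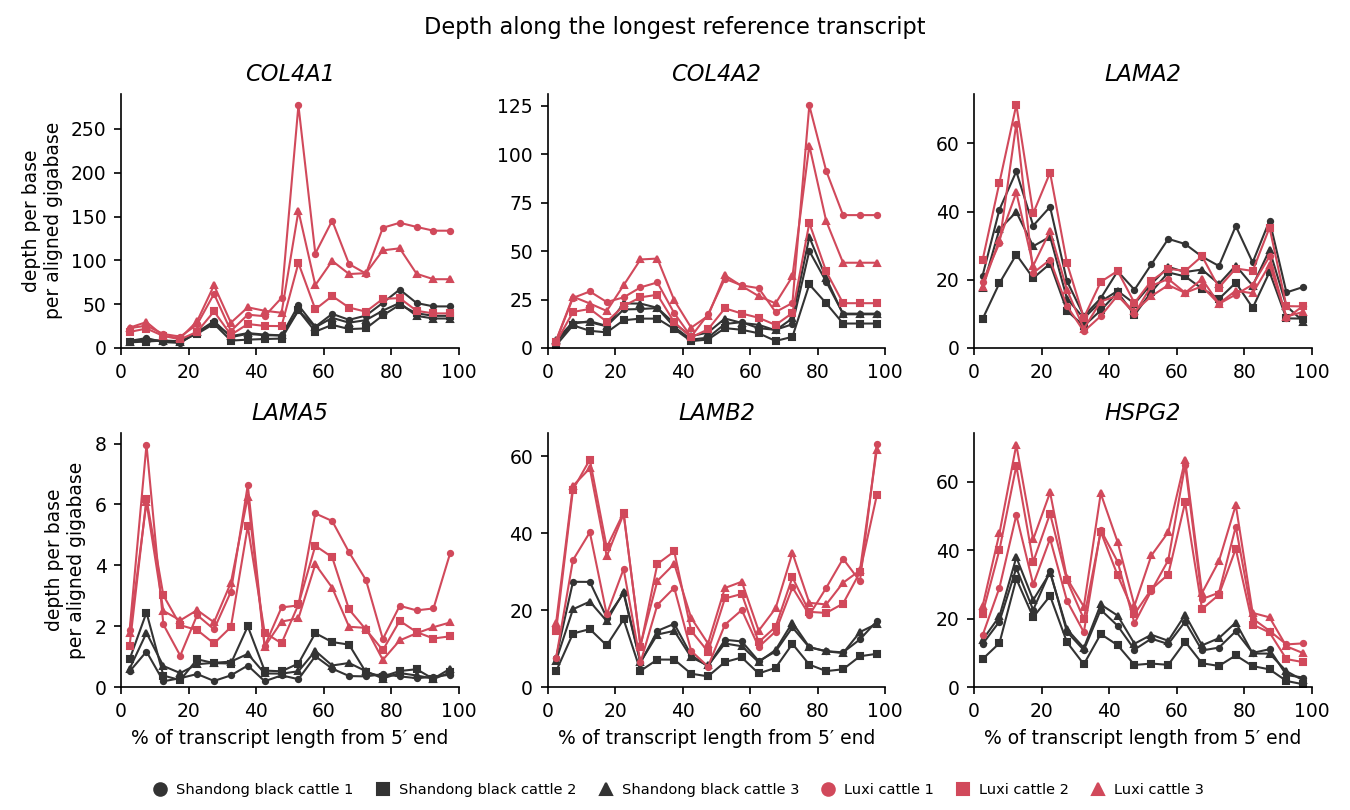
Depth per base per aligned gigabase along the longest reference transcript of 6 genes, in 20 bins from the 5′ end (0%) to the 3′ end (100%), one line per animal. Luxi lines (red) run above the Shandong black lines (dark) along most of LAMB2, LAMA5 and HSPG2, whereas the lines mix along LAMA2.

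Beyond these 10 genes, 112 other genes of the basement membrane, its receptors, synthesis, turnover and induction were listed by role, of which 100 were found and 94 tested. The test called 3 of the 94 higher in Luxi cattle (background 1.54% of all genes) and 0 lower (background 1.02%). The Luxi animals all lay above in 29 (background 20.0%) and all below in 4 (background 9.13%). A fold change above 0 was seen in 70 of the 94, with a median of 0.33. For each role the genes with the largest fold changes in size are given.

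Among the other network components, COL15A1 was tested with COL18A1. COL15A1, a collagen that anchors the basement membrane of vessels and muscle fibres to the surrounding matrix, had an FPKM of 7.91, 7.17 and 7.56 in Shandong black cattle and of 38.9, 27.6 and 30.4 in Luxi cattle. It rose in Luxi cattle with a log2 fold change of 1.95 ± 0.20 (SE) and a limma adjusted p of 0.0105. Its relative COL18A1, the source of endostatin, had a log2 fold change of 0.07 (adjusted p = 0.901, limma).

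Of 10 turnover genes tested, 2 were called higher (background 1.54%) and 0 lower (background 1.02%). TIMP3, an inhibitor of metalloproteinases that is bound to the matrix, had an FPKM of 22.3, 18.5 and 20.8 in Shandong black cattle and of 61.6, 41.7 and 63.4 in Luxi cattle. On the log2 scale the fold change was 1.37 with a limma adjusted p of 0.0384, and the call was lost in 9 of 18 alternatives, among them TPM (adjusted p = 0.0656, limma), quantile normalization, the replicate block and each left-out animal other than Luxi cattle 1. MMP15, a membrane-bound metalloproteinase, had an FPKM of 1.17, 1.34 and 1.51 in Shandong black cattle and of 3.72, 8.06 and 5.43 in Luxi cattle (log2 fold change 1.48 with limma adjusted p = 0.0329). Both the inhibitor and the protease were thus higher in every Luxi animal. ADAMTS1 had a log2 fold change of 1.17 and missed the threshold (adjusted p = 0.0766, limma). The MMP15 call was lost in 6 of 17 alternatives, which were no filter on FPKM (adjusted p = 0.0901, limma) and each left-out animal other than Luxi cattle 1. Without Shandong black cattle 1, 0 of the other basement membrane genes were called, but only 10 of all 9788 genes tested were. Without Shandong black cattle 3, 0 were called, and only 3 of all 9789. Without Luxi cattle 1, 11 were called, and 593 of all 9707.

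Of 22 receptor genes tested, 0 were called (background 2.57%), 6 had all Luxi animals above (background 20.0%) and 1 all below (background 9.13%). BCAM, the receptor for the laminin alpha 5 chain, had a log2 fold change of 1.58 (adjusted p = 0.0580, limma). DAG1, the precursor of dystroglycan, which links laminin to dystrophin, had an FPKM of 37.7, 32.5 and 41.0 in Shandong black cattle and of 67.5, 106 and 112 in Luxi cattle. The breeds lay apart, with a log2 fold change of 1.31 (adjusted p = 0.0576, limma). The study, with Cuffdiff, lists DAG1 among its upregulated genes. SGCA, a sarcoglycan of the same complex, had a log2 fold change of 1.06 (adjusted p = 0.258, limma), and Luxi cattle 1 (24.9 FPKM) was level with the Shandong black animals. Under other settings some receptors were called, DAG1 and BCAM with TPM and with quantile normalization, and DAG1 also without the trend. ITGA7 was called with reference transcripts only, and DAG1, BCAM, SGCA and SDC2 without Luxi cattle 1.

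Of 19 linkers and other basement membrane proteins, 0 were called (background 2.57%), with 4 genes having all Luxi animals above (background 20.0%) and 2 all below (background 9.13%). The 2 were POSTN and SMOC1. POSTN, periostin, had an FPKM of 22.7, 0.806 and 15.0 in Shandong black cattle and of 0.244, 0.220 and 0.356 in Luxi cattle. Shandong black cattle 2 was nearer to the Luxi animals than to its own breed, and the log2 fold change of -2.79 had a limma adjusted p of 0.126. SMOC1, a calcium-binding matrix protein related to SPARC, had a log2 fold change of -1.0 (adjusted p = 0.0766, limma), and SPARCL1, another relative, one of 1.03 (adjusted p = 0.285, limma).

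Of 16 genes for folding, modification and secretion, 0 were called (background 2.57%), 4 had all Luxi animals above (background 20.0%) and 1 all below (background 9.13%). COLGALT2, which adds galactose to collagen, had a log2 fold change of 1.03 (adjusted p = 0.0672, limma). SERPINH1, the collagen chaperone, had 0.97 (adjusted p = 0.146, limma), and MIA3, which loads collagen into transport vesicles, had 0.62 (adjusted p = 0.235, limma). Of 10 genes that build or sulfate the heparan chains of perlecan, 0 were called, 3 had all Luxi animals above and 0 below, against the same backgrounds. B3GAT3, which completes the linker of the chain, had 1.03 (adjusted p = 0.0789, limma), NDST1 0.70 (adjusted p = 0.109, limma) and HS6ST1 0.31 (adjusted p = 0.350, limma).

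Of 15 genes of transforming growth factor beta signalling and of SOX and KLF factors, 0 were called (background 2.57%). Among them 8 had all Luxi animals above (background 20.0%) and 0 below (background 9.13%). SOX17, an endothelial transcription factor, had an FPKM of 0.327, 0.380 and 0.486 in Shandong black cattle and of 1.75, 2.15 and 1.26 in Luxi cattle. Its limma adjusted p was 0.0466, but its log2 fold change of 0.95 was below the threshold. The ratio of mean FPKM was 4.33, and with a pseudocount of 0.1 in place of 1 the gene was called. TGFB2 and SOX7 had log2 fold changes of 0.95 and 0.68 (adjusted p = 0.139 and 0.222, limma).

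**Figure D5:**
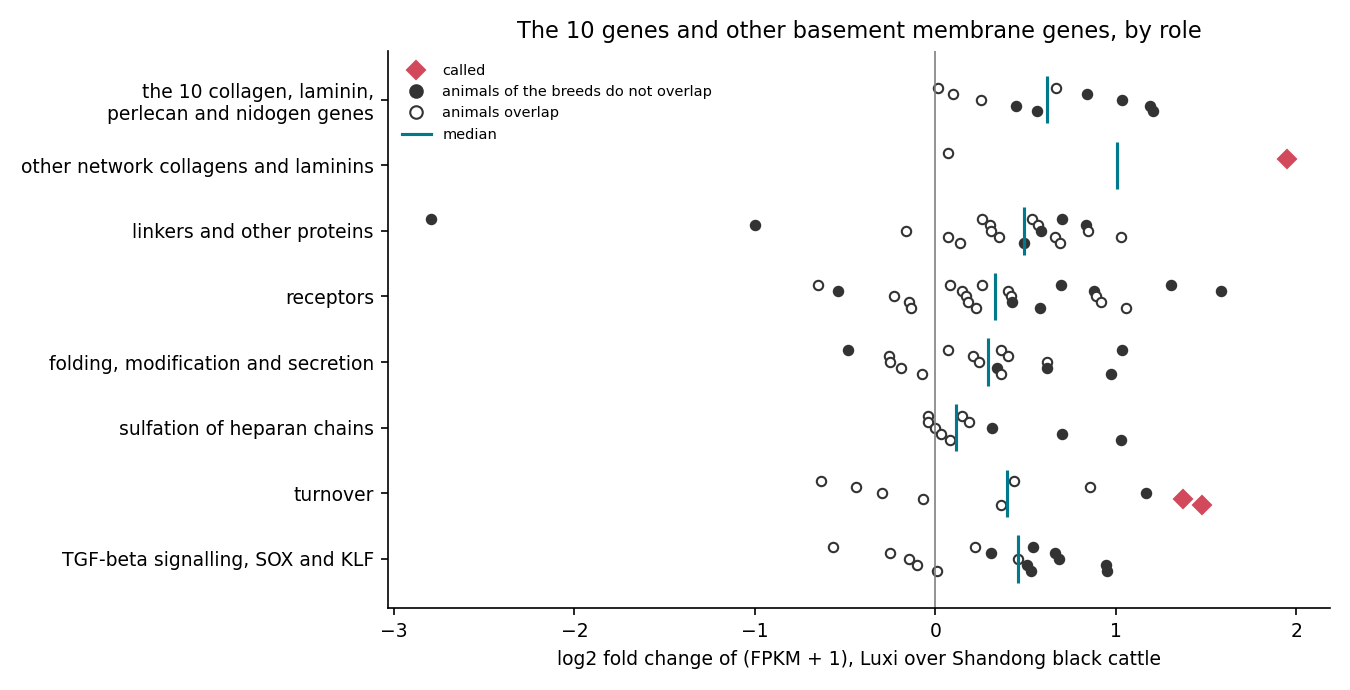
Log2 fold change of (FPKM + 1), Luxi over Shandong black cattle, for the 10 genes and for the other basement membrane genes by role. Red diamonds mark called genes, filled circles genes whose breeds do not overlap, open circles the rest, and the line the median, which is 0.62 for the 10 genes and lies between 0.12 and 1.01 for the roles.

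Markers of the cells that make basement membrane also differed among the animals. In bulk muscle, more cells of a type and more RNA per cell cannot be told apart. The summed FPKM of 11 endothelial genes was 40.8, 36.7 and 42.5 in Shandong black cattle and 135, 46.9 and 66.6 in Luxi cattle. Among the Luxi animals, animal 1 came first and animal 2 last, which was also the order of COL4A1, COL4A2, LAMA4, LAMA5 and NID1. In contrast, LAMA2, LAMB2 and HSPG2 were lowest in animal 1, and LAMB1 and LAMC1 had other orders. The pericyte and fibro-adipogenic sums given below had the same order as the endothelial sum, and Luxi cattle 1 had the lowest muscle fibre sum. Of the 11 endothelial genes 0 were called (background 2.57%) and 5 had all Luxi animals above (background 20.0%). PECAM1 and CDH5 were among the 5, with log2 fold changes of 0.87 and 1.52. The breeds overlapped in the rest, including TEK (0.28), CLDN5 (0.01) and TIE1 (-0.22). The summed FPKM of 10 pericyte and smooth muscle genes was 117, 109 and 129 in Shandong black cattle and 333, 73.5 and 142 in Luxi cattle. Of these 10 genes 1 was called (NOTCH3, 1.08, limma adjusted p = 0.0412), against a background of 2.57%. NOTCH3 was also the 1 gene of the 10 with all Luxi animals above (background 20.0%). The fold change was above 0 in 7 of 10 and below 0 in CNN1 (-0.47), CSPG4 (-0.23) and KCNJ8 (-0.006). The high sum of Luxi cattle 1 came mostly from RGS5 (131 FPKM), ACTA2 (95.6) and TAGLN (62.0).

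Genes of fibro-adipogenic progenitors, the connective tissue cells of muscle, had a sum of 188, 135 and 177 in Shandong black cattle and of 517, 377 and 394 in Luxi cattle. Of 8 tested, 1 was called (background 2.57%), COL3A1, with a log2 fold change of 2.94 (adjusted p = 0.00733, limma). Most of the difference in the sum came from COL3A1 (mean FPKM 22.0 in Shandong black and 177 in Luxi cattle) and COL1A1 (29.9 and 93.4). The fold change was above 0 in 6 of 8, and all Luxi animals lay above in 4 (background 20.0%). DPT (-0.39, with all Luxi animals below) and PI16 (-1.08) had fold changes below 0. Adipocyte genes had lower sums in Luxi cattle, with 218, 152 and 193 in Shandong black cattle and 52.9, 53.1 and 75.1 in Luxi cattle. Here 5 of 8 tested were called lower (background 1.02%). LPL went the other way and was higher in every Luxi animal. Its FPKM was 17.5, 17.0 and 16.7 in Shandong black cattle and 37.2, 23.3 and 36.2 in Luxi cattle (log2 fold change 0.85). The breeds overlapped in PLIN4 (-0.38) and CFD (-0.63). Schwann cell genes (62.8 to 140 against 43.6 to 63.2), macrophage genes (30.4 to 42.0 against 14.9 to 32.1), satellite cell genes (13.4 to 25.5 against 11.3 to 30.1) and blood genes (0.539 to 0.777 against 0.199 to 1.34) overlapped between the breeds in their sums. None was called, but 2 satellite cell genes and 0 blood genes were tested, so blood could give no call. Most of the satellite cell sum was CHRNA1. Most of the Schwann cell sum in Shandong black cattle was S100B, which was lower in every Luxi animal, whereas PMP22 and MBP were higher in every one. The part of these cell types in the values of the basement membrane genes was not tested.

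The mean profile of the 10 genes over the 6 animals was compared with that of every other tested gene by the root mean square difference of centred log2(FPKM + 1). The 5 nearest genes were SUSD6 (0.04), CHMP3 (0.06), HPGD (0.06), ADK (0.06) and KHDC4 (0.07). NID1 was the nearest of the 10 themselves (0.10) and COL4A1 the farthest (0.40). None of the 5 genes was called, and all 5 had every Luxi animal above every Shandong black animal. In the mean profile itself the breeds already lay apart, from -0.19 in the highest Shandong black animal to 0.17 in the lowest Luxi animal. The lack of overlap in the 5 genes therefore followed from how they were picked and is no separate result.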

How the data were processed

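Total RNA of the longissimus dorsi muscle was sequenced from 3 Shandong black cattle and 3 Luxi cattle, which are separate animals with one library each. According to the Methods, the authors used Fastp for trimming and HISAT for alignment to ARS-UCD1.2. The authors deposited StringTie transcript files, one per animal, that list coverage, FPKM and TPM for every transcript. The file headers name StringTie 1.3.3b with a strand setting. Deposited FPKM equals coverage divided by a library's aligned bases, and deposited TPM equals coverage multiplied by one factor per library. Cuffdiff, which the study used, works on alignments and was not rerun. No read counts were used, so no counting error is given, and the number of animals limits the precision.

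Gene FPKM was the sum over reference transcripts and over those assembled transcripts of the same strand of which 50% or more of the bases fell on the gene's exons. A transcript not listed in an animal counted as 0. Genes were tested if their mean FPKM reached 1 in either breed. The breeds were compared with limma 3.58.1 in R 4.3.3 (lmFit, eBayes with trend, pseudocount 1, no covariate, Benjamini-Hochberg adjustment over 9781 genes), which was tested on simulated data. Ratios and coverage balance were compared by exact two-sided permutation tests in scipy 1.17.1. Alternatives were pseudocounts of 0.1 and 0.01, no filter or a mean of at least 5, TPM, size factors, quantile normalization, no trend, a replicate block, other transcript rules, and leaving out each animal. The length-weighted sum and the depth by sections were chosen after the data were seen. The members and gene lists were chosen with earlier results of these data known. The text names the 10 genes, of each role every called gene and the 3 with the largest fold change in size, and the 5 genes of nearest profile. All 10 symbols were found in a RefSeq gene table of another assembly, used for names only.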

Additional observations from a re-analysis of the deposited data

How the results depend on the processing

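The number of the 10 genes called was 0 or 1 under all alternatives. It was 1 with reference transcripts only (LAMA5, log2 fold change 1.62), 1 with the length-weighted sum (LAMA5) and 0 to 1 when one animal was left out (LAMB2 without Luxi cattle 1). With reference transcripts only, LAMA5 counted as 0 in Shandong black cattle 1 and 2, where no reference transcript of it was listed. That call thus rests in part on the assembly and is no separate support. The setting called 163 of 8944 genes tested. The median log2 fold change of the 10 genes ranged from 0.49 to 0.85 over all alternatives, and from 0.49 to 0.74 with one animal left out. HSPG2 without Luxi cattle 1 had a limma adjusted p of 0.0388 but a log2 fold change of 0.90. The fold change of LAMA2 ranged from -0.066 to 0.26 with one animal left out and turned to -0.020 with TPM, -0.038 with size factors, -0.038 with quantile normalization, -0.54 with reference transcripts only, -0.056 without Shandong black cattle 2 and -0.066 without Luxi cattle 2. That of LAMB1 ranged from -0.21 to 0.22 with one animal left out and turned to -0.10 with TPM, -0.11 with size factors, -0.14 with quantile normalization, and -0.21, -0.01 and -0.04 without Shandong black cattle 2, Luxi cattle 1 and Luxi cattle 2. The cause was not tested. The number of other basement membrane genes called was 1 without a filter, where more genes were tested, and 0 to 11 with one animal left out. The number of ratios with breeds apart was 3 to 5 and the difference in coverage balance 0.04 to 0.57 with one animal left out. Calls over all genes numbered 251, and 63 without a filter, 164 with a pseudocount of 0.01, 134 with a mean of at least 5, 163 with reference transcripts only and 3 to 593 with one animal left out.

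Same-numbered animals deviated together weakly (correlations 0.08, 0.09 and 0.07 across genes), though every animal correlated best with its own number. What same-numbered animals share is not known from the labels. Because the labels describe no pairs, the main fit took the numbers as no pairing. A replicate block lowered the calls over all genes to 135, with 0 of the 10 genes and 2 of the other basement membrane genes called (COL15A1 and MMP15, with TIMP3 lost at a limma adjusted p of 0.0603), and a median of 0.62 for the 10.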
